A study of Arabidopsis thaliana with 4 samples.

Results

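WRKY, MYB and NAC proteins are 3 of the larger families of plant transcription factors. Their transcripts were followed in rosette leaves through every probe set that names exactly 1 gene whose symbol starts with one of these family names followed by a digit, whatever its signal. Of 22810 probe sets, 7 met this rule, each for a different gene: those of WRKY6, WRKY20, WRKY22, WRKY42, WRKY47, WRKY53 and NAC014. In all, the probe sets that name 1 gene cover 13356 genes. The 7 comprise 6 probe sets for the WRKY family, 1 for the NAC family and 0 for the MYB family. RefSeq gives such a symbol to 67 WRKY, 121 MYB and 81 NAC genes, and the remaining genes were not analysed here, so the values below describe these 7 genes and not their families.

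The study compared KO-nudx19 plants, which lack the NADPH-cleaving enzyme nudix hydrolase 19, with wild-type plants, both of the Col-0 background and 3 weeks old. How the gene was disrupted, and in how many independent lines, is not given in the sources used here. All plants grew for 1 week on sucrose medium and for 2 weeks on soil before leaves were taken. RNA of each genotype was hybridised to 2 Affymetrix arrays, numbered 1 and 2 in the labels, and each of the 4 arrays gave 1 deposited signal per probe set on a linear scale. The labels do not say whether the 2 samples of a genotype came from separately grown plants or what the number stands for, so the p-values reflect no more than array-to-array spread, part or all of which could be technical.

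WRKY proteins bind W-box elements in promoters through a domain named after its conserved WRKY residues, and many of them act in immunity and leaf senescence, often by activating or repressing each other's genes. NAC proteins carry a DNA-binding NAC domain at their N-terminus and include regulators of senescence, wall formation and stress responses. Some NAC proteins are held at membranes and are released by cleavage. In leaf tissue several WRKY genes respond within a short time to pathogens, wounding or hydrogen peroxide.

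Arrays of one number resembled each other more than arrays of one genotype. The correlation of log2 signals across tested probe sets, which are not independent replicates, was 0.972 and 0.965 within the numbers and 0.926 and 0.928 within KO-nudx19 and wild type. Poly(A) controls, bacterial transcripts added to the RNA, had a geometric mean signal of 19.9 to 21.03 on the arrays numbered 2 and of 98.2 to 116 on those numbered 1. The actin 3′/5′ ratio, which is higher in less intact RNA, was 4.27 to 5.17 on the arrays numbered 2 and 2.30 to 2.92 on those numbered 1. Controls for the hybridisation step parted by genotype instead. Their geometric mean signal was 1054 and 1140 on the KO-nudx19 arrays numbered 1 and 2, and 620 and 411 on the wild-type arrays. Whether this bears on the genotype differences below was not tested. The genotype test itself left the number out, and genotype differences are also given within each number and with the number as a block. The probe set of the targeted gene was not analysed here, so the genotype labels could not be checked. Of 10 leaf mesophyll markers only RCA, the gene of Rubisco activase, had a named probe set, with signals of 14928 and 19541 in KO-nudx19 and 11113 and 13710 in wild type. Of 8 root markers 2 were named: EXPA7, a root hair expansin gene, had 6.28 at most on the 4 arrays, and PYK10, a beta-glucosidase gene, had 471 to 794. Guard cells (FMA, 1 of 4 markers named) and vascular tissue (SWEET11, 1 of 4 named) were also represented, and flower and seed markers had 0 named probe sets. Of the 4 tested markers 0 passed between the genotypes in limma, and 1, RCA, had an unadjusted p under 0.05 with the number as a block (0.00558) and 0 without it. RCA was higher and PYK10 lower on both KO-nudx19 arrays (PYK10 544 and 471 in KO-nudx19, 607 and 794 in wild type), and their part in the genotype differences below was not tested. SWEET11 was lower on the arrays numbered 2 (log2 difference −0.63, adjusted p = 0.0496 in limma), a call made in this direction for 6.27% of all tested probe sets.

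5 of the 7 transcripts had enough signal in leaves to be tested. A probe set was tested if its mean over the 4 arrays reached 37.1, the 40th percentile of all signals. WRKY20, WRKY22, WRKY47, WRKY53 and NAC014 did so, and each of them was above 37.1 on all 4 arrays. WRKY6 and WRKY42 did not. Detection calls were not used here, so a probe set below this value is described as dim and not as absent, and signals of different probe sets are not set against each other because probes differ in how brightly they report.

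WRKY53 encodes a group III WRKY protein that promotes leaf senescence and responds to hydrogen peroxide. Its signals were 83.8 and 270 on the KO-nudx19 arrays numbered 1 and 2, and 50.8 and 172 on the wild-type arrays numbered 1 and 2. Both arrays numbered 2 were high, and the genotypes overlapped because wild type replicate 2 stood above KO-nudx19 replicate 1. WRKY22 encodes a group IIe protein of the MAP kinase cascade that follows recognition of bacterial flagellin. It had 46.01 and 59.7 in KO-nudx19 and 39.9 and 56.5 in wild type, again with both arrays numbered 2 on top and with overlapping genotypes.

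WRKY20, a group I gene whose protein has a pair of WRKY domains, had 145 and 125 in KO-nudx19 and 164 and 142 in wild type (replicates 1 and 2). The wild-type array was the higher one in each number, and the genotypes overlapped by a small margin. WRKY6, WRKY42 and WRKY47 belong to group IIb. WRKY47, a gene linked to aluminium tolerance, had 65.9 and 65.4 in KO-nudx19 and 51.7 and 57.5 in wild type. Both KO-nudx19 arrays lay above both wild-type arrays, and the KO-nudx19 arrays were nearly equal.

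WRKY6 and WRKY42 encode repressors of the phosphate exporter gene PHO1, and WRKY6 also acts in senescence and defence. WRKY6 had 44.7 and 38.1 in KO-nudx19 and 24.5 and 28.1 in wild type (replicates 1 and 2). It was above the threshold of 37.1 on both KO-nudx19 arrays and below it on both wild-type arrays. Its mean of 33.8 over the 4 arrays left it just outside the test. WRKY22, the tested transcript nearest to the threshold, had a mean of 50.5. WRKY42 had 1.21 and 5.85 in KO-nudx19 and 9.59 and 2.11 in wild type. On 3 of 4 arrays it lay below 8.92, the 20th percentile of all signals to which lower values were raised, so its values have no order and no fold change is given. NAC014, a gene for a NAC protein of the membrane-associated type, had 95.5 and 66.4 in KO-nudx19 and 94.8 and 71.5 in wild type. Both arrays numbered 1 were high, with nearly equal signals in both genotypes.

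**Figure D1:**
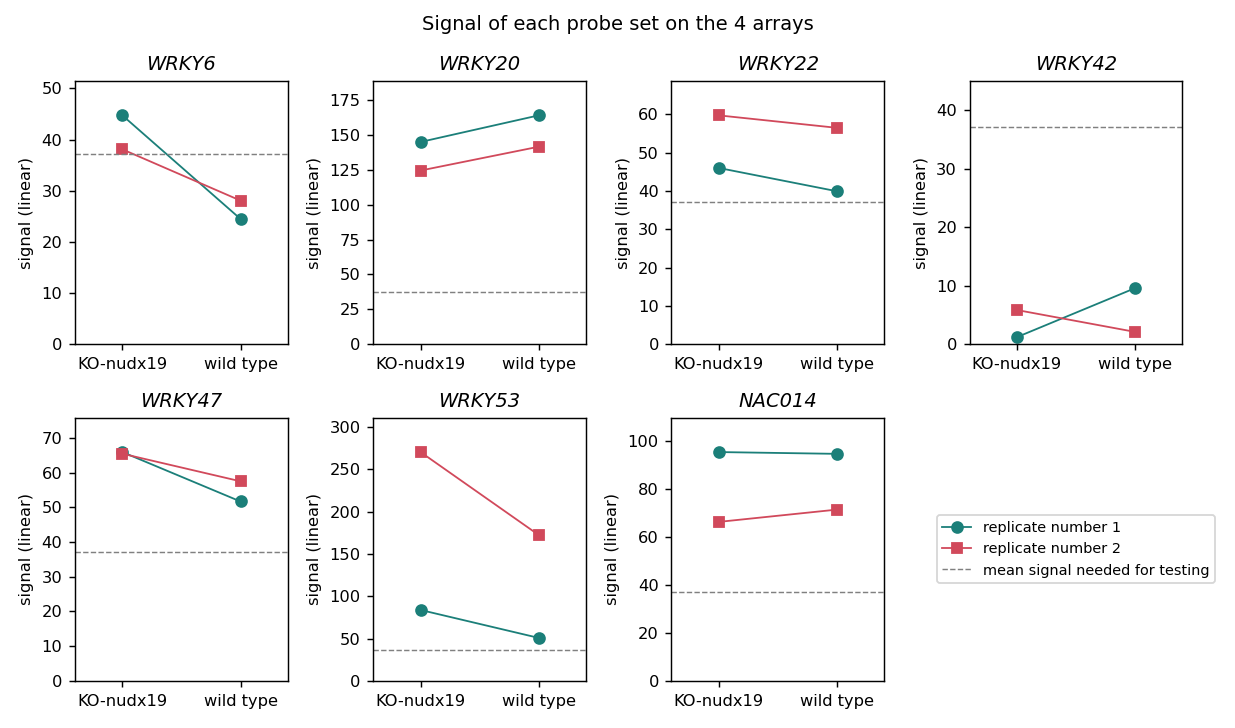
Linear signal (y axis, starting at 0, own scale in each panel) of the 7 probe sets on the KO-nudx19 (left) and wild-type (right) arrays. Circles and squares are single arrays with replicate numbers 1 and 2, lines join arrays of one number, and the dashed line is the mean signal of 37.1 needed for testing; WRKY53 is split by number, WRKY6 and WRKY47 by genotype, and WRKY42 is near 0.

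In RNA of whole leaves, a change in transcript per cell and a change in the share of a cell type cannot be told apart. The comparison of KO-nudx19 with wild type asked whether these regulators differ when NUDX19 is absent. None of the 5 tested transcripts passed, and the widest log2 difference among them, that of WRKY53, was 0.69 (SE 0.75). In limma's test without the number, 0 of 5 passed an adjusted p of 0.05 and 0 had an unadjusted p under 0.05. Over all 13756 tested probe sets 0 passed as well (0%), with 89 at an unadjusted p under 0.05. With the number as a block in limma, 0 of 5 passed and 1, WRKY53, had an unadjusted p under 0.05. Over all tested probe sets 2 passed with the block (0.0145%) and 740 had an unadjusted p under 0.05 (5.38%). With 2 arrays against 2, the smallest two-sided p that an exact permutation test of 1 probe set allows is 0.333.

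WRKY53 was higher in KO-nudx19 within each number. The KO-nudx19 signal was 1.65-fold the wild-type signal on the arrays numbered 1 and 1.57-fold on those numbered 2, log2 differences of 0.72 and 0.65. The pooled log2 difference had a 95% confidence interval of −1.16 to 2.53 (limma adjusted p = 1.00, array means 177 ± 132 in KO-nudx19 and 112 ± 86.0 in wild type, SD, n = 2 each), and each SD comes from the gap between that genotype's arrays numbered 2 and 1. With the number as a block the interval was 0.16 to 1.21, with an unadjusted p of 0.0128 and an adjusted p of 0.673 in limma. WRKY53 was the 1 tested transcript of the 5 that was at least 1.5-fold higher in KO-nudx19 in both numbers, which held for 0.698% of all tested probe sets. This cut-off lies just under the WRKY53 ratios themselves and was counted in this direction only, so the share is not separate support. Leaving out 1 array breaks the balance between the numbers: the log2 difference was −0.20 without wild type replicate 1 and −0.16 without KO-nudx19 replicate 2, but 1.57 without wild type replicate 2 and 1.53 without KO-nudx19 replicate 1, with no call in any of these fits.

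WRKY47 was the 1 tested transcript of the 5 whose genotypes did not overlap, and this was in the direction of higher signal in KO-nudx19. Over all tested probe sets 10.5% lay apart with KO-nudx19 higher and 11.8% with KO-nudx19 lower (22.3% in all), and 1 of 5 is near that share. Its means were 65.7 ± 0.338 in KO-nudx19 and 54.6 ± 4.11 in wild type (SD, n = 2 each). The log2 difference was 0.27 (SE 0.32, limma adjusted p = 1.00, interval −0.51 to 1.04). In the arrays numbered 1 and 2 the difference was 0.35 and 0.19.

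The dim WRKY6 was higher in both KO-nudx19 arrays, with means of 41.4 ± 4.69 in KO-nudx19 and 26.3 ± 2.54 in wild type (SD, n = 2 each). Its ratio was 1.83-fold in the arrays numbered 1 and 1.36-fold in those numbered 2, a pooled log2 difference of 0.66. It entered no test with the filter on dim probe sets, and with all probe sets tested its adjusted p in limma was 1.00.

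The remaining transcripts differed less. WRKY22 had a log2 difference of 0.14 (0.20 and 0.08 in the arrays numbered 1 and 2), with an interval of −0.79 to 1.08. WRKY20 had −0.18 (−0.18 and −0.19 in the arrays numbered 1 and 2, interval −0.83 to 0.47), with means of 135 ± 14.5 in KO-nudx19 and 153 ± 15.9 in wild type. It was −0.076 and −0.072 without wild type replicate 1 and KO-nudx19 replicate 2, and −0.29 without either of the other arrays. NAC014 stood at −0.05 (interval −0.89 to 0.79), with 0.01 and −0.11 in the arrays numbered 1 and 2. The intervals of WRKY22, WRKY47 and WRKY53 still held a 2-fold difference.

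By family, 3 of the 4 tested WRKY transcripts had log2 differences above 0 and 1 below, with a median of 0.21, against −0.0006 over all tested probe sets. Within the numbers the WRKY median was 0.28 (number 1) and 0.13 (number 2), and it was −0.09 without wild type replicate 1, −0.06 without KO-nudx19 replicate 2 and 0.37 without wild type replicate 2. Over the 5 tested transcripts of both families, 3 were above wild type in both same-numbered pairs and 1 was below in both. Among all tested probe sets these shares were 24.3% and 24.8%.

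**Figure D2:**
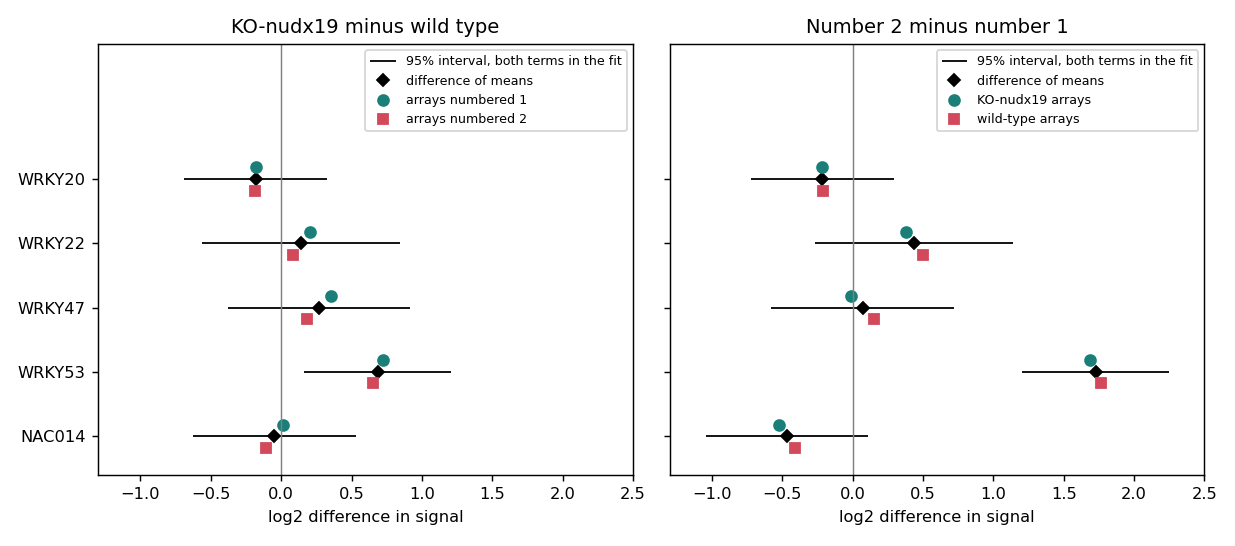
Log2 differences of the 5 tested probe sets for KO-nudx19 minus wild type (left) and for number 2 minus number 1 (right). Diamonds are differences of means with 95% intervals from the limma fit that holds both genotype and number, and circles and squares are the 2 single-array differences behind each diamond; only WRKY53 among the 5 has intervals that leave out 0, 0.16 to 1.21 for genotype and 1.202 to 2.25 for number.

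The comparison of the replicate numbers was made because the arrays parted by number. Of the 5 tested transcripts, WRKY53 was the 1 that passed: it was higher on the arrays numbered 2 in both genotypes, by more than 3-fold. The other 4 tested transcripts did not pass the test, although 3 of them also did not overlap between the numbers. With genotype and number in the fit, 1 of 5 passed an adjusted p of 0.05 in limma, in the direction of higher signal on the arrays numbered 2, and 0 passed in the other direction. Over all tested probe sets 678 passed higher (4.93%) and 862 lower (6.27%), 11.2% in all. A count of 1 in 5 does not stand apart from that share. The balance of directions turned with median centring (698 higher, 623 lower) and without wild type replicate 1 (299 and 223) or KO-nudx19 replicate 1 (297 and 228), and was 403 and 830 without KO-nudx19 replicate 2.

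The WRKY53 signals were 270 and 172 on the KO-nudx19 and wild-type arrays numbered 2, against 83.8 and 50.8 on those numbered 1. The arrays of the numbers lay apart by 2.06-fold at their nearest values. The ratio of number 2 to number 1 was 3.23 in KO-nudx19 and 3.39 in wild type. The log2 difference was 1.73 (SE 0.25, interval 1.202 to 2.25, limma adjusted p = 9.3e-05), the 127th highest of 13756. This too was 2 arrays against 2, where an exact permutation test allows no two-sided p below 0.333. The fit left 1 residual degree of freedom, so its p-value rests largely on variance estimated across all tested probe sets. A ratio of at least 3-fold in both genotypes was seen for 0.741% of all tested probe sets. That cut-off, too, lies just under the WRKY53 ratios and was counted upward only, so the share is not separate support. Leaving out each array in turn, with number alone in the fit, gave log2 differences of 1.36 to 2.09, all with adjusted p-values of 0.0408 or lower. The poly(A) controls and the actin ratio moved with the same split, and their part in the result was not tested. Quantile normalization, which forces the arrays to one distribution, gave 1.81 (adjusted p = 7.7e-10). The call was lost when all probe sets were tested without a filter on dim ones (adjusted p = 0.410), and held when the floor on low values was dropped as well (adjusted p = 0.00746).

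WRKY22 was also higher on both arrays numbered 2, with 59.7 and 56.5 on the KO-nudx19 and wild-type arrays numbered 2, against 46.01 and 39.9 on those numbered 1. Its log2 difference of 0.44 (SE 0.34) did not pass (adjusted p = 0.464). NAC014 was lower on both arrays numbered 2, at 66.4 and 71.5, against 95.5 and 94.8 on those numbered 1, a log2 difference of −0.47 (SE 0.28, adjusted p = 0.322 in limma). WRKY20 stood lower there by less, with a log2 difference of −0.22 in KO-nudx19 and −0.21 in wild type (adjusted p = 0.645).

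In all, 4 of the 5 tested transcripts did not overlap between the numbers, 2 higher and 2 lower on the arrays numbered 2. Among all tested probe sets 23.7% lay apart higher and 30.7% lower, 54.4% in all. WRKY47 overlapped, with 65.4 and 57.5 on the arrays numbered 2, against 65.9 and 51.7 on those numbered 1 (KO-nudx19 and wild type each time). The dim WRKY6 overlapped as well, with 38.1 and 28.1 against 44.7 and 24.5. The median number difference of the 4 WRKY transcripts was 0.26, against −0.05 over all tested probe sets. It depended on the transcripts and arrays kept: it was 0.12 without wild type replicate 1, 0.39 without KO-nudx19 replicate 1, 0.75 with the filter at the 60th percentile, 0.03 with no filter and 0.06 with neither filter nor floor. The group IIb genes WRKY6 and WRKY47 had differences of −0.02 and 0.07.

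**Figure D3:**
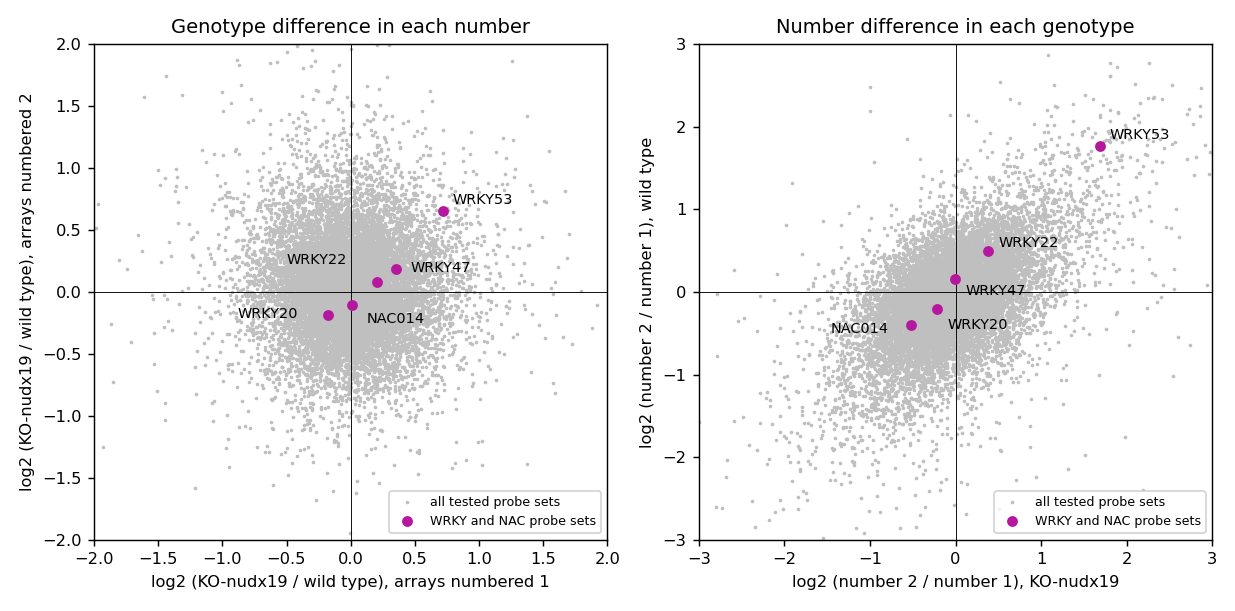
Left, log2 ratio of KO-nudx19 to wild type on the arrays numbered 1 (x axis) and 2 (y axis); right, log2 ratio of number 2 to number 1 in KO-nudx19 (x axis) and wild type (y axis). Grey points are all tested probe sets (77 lie outside the left panel and 80 outside the right one) and purple points are the 5 tested WRKY and NAC probe sets; WRKY53 lies at 0.72 and 0.65 on the left and at 1.69 and 1.76 on the right.

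**Figure D4:**
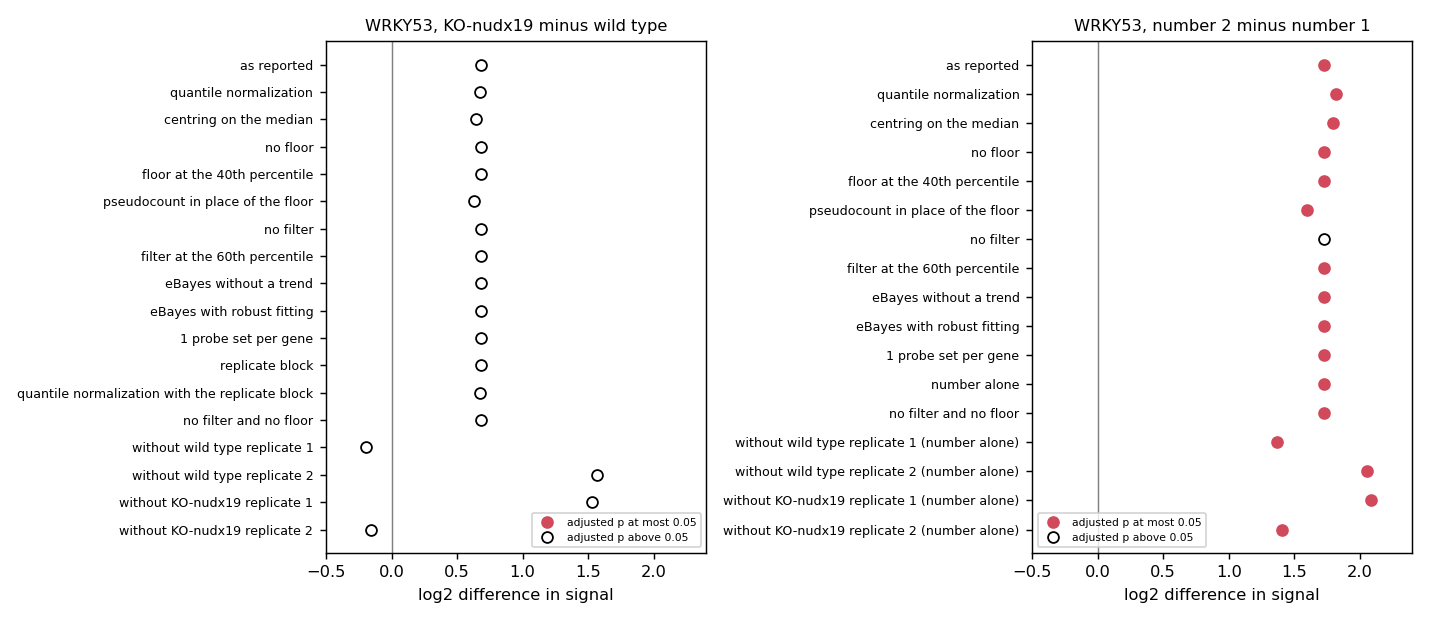
Log2 difference of WRKY53 for KO-nudx19 minus wild type (left) and number 2 minus number 1 (right) under each way of processing, named on the y axis. Filled points passed an adjusted p of 0.05 and open points did not; the genotype difference falls to −0.20 and −0.16 when 1 of 2 arrays is left out, and the number difference stays between 1.36 and 2.09.

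Enzyme genes of pathways that WRKY, MYB and NAC factors are known to control had few named probe sets. Salicylic acid and pattern-triggered defence, which WRKY proteins regulate, had 0 of 12 genes named, and secondary wall and phenylpropanoid enzymes, which NAC and MYB proteins regulate, had 0 of 17. Leaf senescence had 1 of 11, the lipase-like gene SAG101. It had 61.5 and 49.2 in KO-nudx19 and 64.0 and 50.7 in wild type (replicates 1 and 2). SAG101 was thus lower on both arrays numbered 2, with a log2 number difference of −0.33 that did not pass (adjusted p = 0.582 in limma). Over all tested probe sets 30.7% lay apart lower, and 1 gene of 11 does not describe senescence.

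Of 23 glucosinolate enzymes, which several MYB factors activate, 3 were named and tested, so the pathway as a whole is not described. Of these 3, 2 passed as higher on the arrays numbered 2, against 4.93% of all tested probe sets. The list was chosen with earlier results of these data known, so this count does not support a result for the pathway. BCAT4, an aminotransferase gene, passed with a log2 number difference of 1.83 (SE 0.21). The other was AT2G31790, a glucosyltransferase gene, with 932 and 1006 on the KO-nudx19 and wild-type arrays numbered 2, against 364 and 460 on those numbered 1 (log2 difference 1.24, SE 0.23, adjusted p = 8.6e-04 in limma). UGT74B1, a thiohydroximate glucosyltransferase gene, had 953 and 858 against 628 and 681 and did not pass (adjusted p = 0.20). The median number difference of these 3 was 1.24 on the log2 scale.

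Of 11 flavonoid enzymes, another group of MYB targets, 4 were named and 3 tested. Of these 3, 2 passed as higher on the arrays numbered 2, against 4.93% of all tested probe sets. Both of these, AT4G14090 and DFR, were above 37.1 only on the arrays numbered 2 and passed the filter through them, so their calls in this direction do not support a result for the list. AT4G14090, an anthocyanin glucosyltransferase gene, had 41.4 and 70.6 on the KO-nudx19 and wild-type arrays numbered 2, against 20.8 and 20.8 on those numbered 1 (log2 difference 1.38, SE 0.42, adjusted p = 0.0381 in limma). DFR, the dihydroflavonol reductase gene, had 63.4 and 62.9 against 18.8 and 27.8 (log2 difference 1.47, adjusted p = 0.0177). UGT78D2 did not pass (log2 difference 0.21, adjusted p = 0.656 in limma). UF3GT was not tested, because its mean over the 4 arrays was 24.8. It had 37.2 and 53.9 on the KO-nudx19 and wild-type arrays numbered 2. On those numbered 1 it had 2.09 and 6.08, both below the floor of 8.92. Between the genotypes 0 of the 7 tested genes of these pathways passed in limma, with or without the block, with 2 of 7 (BCAT4 and UGT78D2) at an unadjusted p under 0.05 with the block and 0 without it. Over all tested probe sets 5.38% were under 0.05 with the block. UGT78D2, with 141 and 152 in KO-nudx19 and 188 and 233 in wild type, was the 1 of the 7 that did not overlap between the genotypes, against 22.3% of all tested probe sets.

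3 further transcription factor genes have symbols outside the naming rule but are tied to these families by synonym or name. They were chosen after their values were seen. ZAP1 carries WRKY1 as a RefSeq synonym and had 246 and 180 in KO-nudx19 and 238 and 155 in wild type (replicates 1 and 2). It was lower on both arrays numbered 2, with a log2 number difference of −0.54 (SE 0.24, adjusted p = 0.166 in limma). AT5G47390, the MYB-related gene KUA1, had 593 and 454 in KO-nudx19 and 465 and 467 in wild type, and 3 of its 4 arrays lay close together. MYBC1 had 130 and 127 in KO-nudx19 and 106.5 and 106.3 in wild type. Its genotypes did not overlap, which held for 22.3% of all tested probe sets. The log2 difference was 0.27 (SE 0.26, limma adjusted p = 1.00), 0.29 and 0.25 in the arrays numbered 1 and 2.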

How the data were processed

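The values were intensity signals deposited by the authors, 1 per probe set and array. GCOS, the array maker's software, was named per the submitters' processing notes; its version and how background, probe summary and scaling were set are not stated in the labels. Signals were linear, and the trimmed mean (2% off each end) was 200 on all 4 arrays.

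Groups came from sample titles. Probe sets were named through the platform annotation, with symbols updated by gene ID through RefSeq TAIR10.1 (13436 of 13513 probe sets with 1 gene matched; 8730 are unnamed here, 503 name several genes). No coordinates or sequences are given. Signals below the 20th percentile (8.92) were raised to it before taking log2. The 64 control probe sets and those with a mean below the 40th percentile (37.1) were left out. Then limma 3.58.1 (R 4.3.3; lmFit, eBayes with trend) was run on 13756 probe sets with Benjamini-Hochberg adjustment. Genotype was fitted alone; number was fitted with genotype. Fold changes are on this floored scale. The code was tested on simulated data. Figures used matplotlib 3.10.9.

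All 7 probe sets are described; pathway and marker genes were named from lists. The members and lists were chosen with earlier results of these data known. Alternatives were other normalizations, floors, filters and variance models, the replicate block, 1 probe set per gene, platform symbols, and leaving out each array.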

Additional observations from a re-analysis of the deposited data

Results flagged for a closer look

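The signs of the same difference were opposed between the numbers or between the genotypes for some transcripts, each from single arrays. The difference between them was not tested, because 1 array stands for each genotype and number. For KO-nudx19 minus wild type, on the log2 scale and in the arrays numbered 1 and 2, NAC014 had 0.011 and −0.11, AT4G14090 had 0.0041 and −0.77, DFR had −0.57 and 0.010, SWEET11 had −0.037 and 0.0042, UGT74B1 had −0.12 and 0.15, and AT5G47390 had 0.35 and −0.040. For number 2 minus number 1, in KO-nudx19 and wild type, WRKY47 had −0.010 and 0.15, WRKY6 had −0.23 and 0.20, PYK10 had −0.21 and 0.39, and AT5G47390 had −0.38 and 0.0067. NAC014 and WRKY47 passed neither test, and WRKY6 was too dim to be tested.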

How the results depend on the processing

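Between the genotypes, 0 of the WRKY and NAC probe sets were called under any of 18 alternatives in limma. Over all probe sets the count was 2 with the replicate block, 94 with quantile normalization and the replicate block (added after seeing the data), and 0 to 12 with single arrays left out. The labels do not say that the number pairs the samples; deviations of same-numbered arrays from their genotype means had a correlation of 0.552 across probe sets, and the replicate block changed no call of a WRKY or NAC probe set (WRKY53 adjusted p = 0.673). Between the numbers, 1 WRKY or NAC probe set was called under each alternative except without a filter, where 0 were called (0 over all probe sets, with 2705 at an unadjusted p under 0.05; the cause was not tested). Dropping filter and floor together, added after seeing the data, gave 671 over all probe sets and 1 here. The count over all probe sets was 1540 as reported, 1020 with the filter at the 60th percentile and 522 to 1290 with single arrays left out and number alone in the fit, since 3 arrays leave no residual freedom for both terms (522 without wild type replicate 1, 525 without KO-nudx19 replicate 1). Of 82 genotype values of the 5 tested transcripts 6 changed sign, all without wild type replicate 1 or KO-nudx19 replicate 2: WRKY53 stood at −0.20 and −0.16 (leaving out single arrays, up to 1.57), WRKY22 at −0.11 and −0.05 (up to 0.39), and NAC014 at 0.16 and 0.21 (down to −0.31). Of 77 number values 2 changed sign, WRKY47 at −0.10 and −0.022 without the same arrays. Precision is bounded by having 2 arrays a genotype.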
